A study of Homo sapiens with 4 samples.

Results

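The genes that THP1 cells expressed without knockdown were read from the 2 control arrays of an MLL-AF9 knockdown experiment, 1 for control siRNA-1 and 1 for control siRNA-2. THP1 is a human monoblastic cell line of acute myeloid leukemia (AML), subtype M5, that carries the MLL-AF9 fusion, and both controls were non-targeting siRNAs, so MLL-AF9 was not targeted in either. Cells were transfected on days 0, 3 and 6 and harvested on day 8, in 10% FCS up to day 6 and in 0.5% FCS from then on, and each array held RNA pooled from 5 experiments. The other 2 of the 4 arrays held knockdown cells and entered only through a quality filter. Spots that were no control spots and had a deposited quality weight above 0 on all 4 arrays were kept, log2 intensities were averaged per probe, and the brightest probe stood for each gene name. This kept 20654 of the 26608 gene names on the array.

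AML of subtype M5 consists of cells arrested on the way from the myeloid progenitor to the monocyte. Such cells make azurophil granules, vesicles filled with serine proteases and other antimicrobial proteins that are synthesised at the promyelocyte and promonocyte stages and stored until maturity. MLL fusion proteins hold early homeobox genes such as the HOXA genes and their cofactor MEIS1 in an active state and so maintain self-renewal.

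A gene was called detected when the scanner software marked most spots of its probe as well above background on both control arrays. This held for 19113 genes, 71.8% of all gene names on the array. On control siRNA-1 the 153 negative control spots had a median log2 intensity of 4.75 and on control siRNA-2 of 4.81, and the highest stood at 5.13 on both. The dimmest detected genes reached 5.04 and 5.13, within the range of those spots. A stricter level was therefore also used, a mean above the median of the detected genes, which was 8.88 on the log2 scale and was passed by 35.9% of all gene names. Shares and counts of gene groups below are to be read beside these 2 background shares. Probes differ in how well they hybridise, so that brightness orders probes and is no measure of transcript number. Genes left out by the quality weights were detected on no control array, and their highest log2 mean was 5.46, so counts of gene groups are given out of all members on the array.

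Of the 30 brightest genes with a RefSeq symbol 17 encoded cytoplasmic ribosomal proteins, and of the 100 brightest gene names 49 did. RPS2 read 18.40 on control siRNA-1 and 18.49 on control siRNA-2, and RPL13 read 18.43 and 18.46. All 77 cytoplasmic ribosomal protein genes were detected, with a median of 17.46, and RPL27A was the dimmest of them with 8.33 and 8.22. EEF1A1, which brings aminoacyl-tRNA to the ribosome, ranked at place 6 with 18.73 and 18.46, and its other 5 probes had means between 15.73 and 17.01. OAZ1, an inhibitor of polyamine synthesis, read 18.17 and 18.21. The cytoskeletal actin ACTB read 18.14 and 18.21, and the nucleosome-binding HMGN2 18.14 and 18.20. OAZ1, ACTB and HMGN2 each lay close to their value on the other array. The brightest gene of the cell lineage lists was CTSG at place 5, and the granule genes next to it in brightness, SRGN and ELANE, were at places 112 and 145.

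Several probes at the very top carried a stretch of the Alu repeat, the most frequent interspersed repeat of the human genome. The stretch CCAGCCTGG was searched on the probe strand in all 34127 probes of 60 bases and was found in 27 of them (0.0791%), but in 7 of the 100 brightest and in 12 of the 500 brightest. The probes with it had a median log2 mean of 14.77, against 6.88 over all probes. Its reverse complement CCAGGCTGG was held by 23 probes, by none of the 500 brightest, with a median of 9.76. SNAR-A3, a small noncoding RNA gene related to Alu (probe at chr19:48421727-48421786, hg19), gave the highest intensity of all with 19.14 and 19.21. PQLC2 followed with 18.65 and 18.68, FAM74A4 with 18.25 and 18.37, and LOC284600 with 18.27 and 18.29. Other probes of the same genes, where the array had them, did not share this brightness. GPR155 read 18.44 and 18.43 on the probe with the stretch, whereas its other probes had means of 6.25 and 6.43. AS3MT read 17.78 and 17.17 with the stretch and 5.39 and 5.43 without it. PTRF read 16.12 and 16.48 with it and 7.07 and 6.19 without it, and XRCC3 17.04 and 17.36 with it and 11.10 and 11.12 without it. MRPS16, a mitochondrial ribosomal protein gene, read 15.89 and 15.87 with it and 10.17 and 10.28 without it. SLC16A12, a transporter gene, read 17.88 and 17.95 on a probe without the stretch, and its other 2 probes were not detected. AS3MT, XRCC3, PTRF, MRPS16 and SLC16A12 were chosen after their values were seen. NAA40, an N-terminal acetyltransferase gene, was the runner-up of the whole array with 18.73 and 18.86, but that probe lay at chr17:41385995-41386054, and the other NAA40 probe, at chr11:63723802-63723861, read 7.87 and 7.72. RN28S1, named for 28S ribosomal RNA, read 18.73 on both arrays. Among the 4482 kept genes with several probes, the brightest and dimmest probe differed by a median of 1.83 on the log2 scale, and in 374 genes by more than 5.

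Azurophil granule genes stood out among all lineage lists. Of 11 genes on the array 10 were detected and the same 10 passed the median of detected genes, 90.9% against 35.9% of all gene names. CTSG (chr14:25042788-25042847, hg19) encodes the protease cathepsin G and read 18.50 and 18.70, 18.60 ± 0.14 (SD, n = 2). ELANE, neutrophil elastase, read 16.81 and 16.87. AZU1, the protease homologue azurocidin, read 16.34 and 16.38. ELANE and AZU1 were closer between the arrays than CTSG, which was higher by 0.20 on control siRNA-2, and PRTN3, proteinase 3, read 15.76 and 15.80. SRGN, the proteoglycan core protein that packs granule contents, read 17.26 and 17.22. The granule ribonuclease genes RNASE2 and RNASE3 read 15.23 and 15.17, and 13.37 and 13.29. The membrane protein gene MS4A3 read 12.26 and 12.13, and SERPINB1, an inhibitor of the granule proteases, 11.87 and 11.83. MPO, myeloperoxidase, was the dimmest detected member with 10.13 and 10.32. BPI, the gene of a bactericidal granule protein, read 5.09 and 5.13 and was not detected.

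Genes around the granule genes, by the probe positions of the scanner files (hg19), were in part dim and in part bright. On chromosome 19 the probes of AZU1, PRTN3, ELANE and CFD followed each other between 831799 and 863306, and all 4 had means between 15.78 and 16.84. CFD encodes complement factor D, a serine protease too, and read 16.24 and 16.26. Before them LPPR3 read 13.01 and 13.10, and behind them MED16, a subunit of the Mediator complex, read 9.16 and 9.27. On chromosome 14 CTSG was flanked by CMA1, the mast cell chymase gene, with 6.22 and 6.35, and by the granzyme genes GZMH and GZMB, with 6.29 and 6.55, and 6.31 and 6.33. Of these 4 protease genes CTSG alone passed the median of detected genes. In the ribonuclease cluster RNASE3 and RNASE2 were preceded by RNASE6 with 8.92 on both arrays and by RNASE1, the pancreatic form, with 7.03 and 6.99. Near MPO the eosinophil peroxidase gene EPX read 8.04 and 8.22 and the lactoperoxidase gene LPO 5.70 and 5.54. Other neighbours were bright, such as SUPT4H1, a transcription elongation factor gene, which with 13.80 and 13.91 exceeded MPO itself. METT11D1 beside RNASE2 read 12.08 and 12.27, NDRG2 10.28 and 10.42, and KHNYN near CTSG 11.51 and 11.59. The neighbours outside the gene lists were chosen after the values were known.

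**Figure D1:**
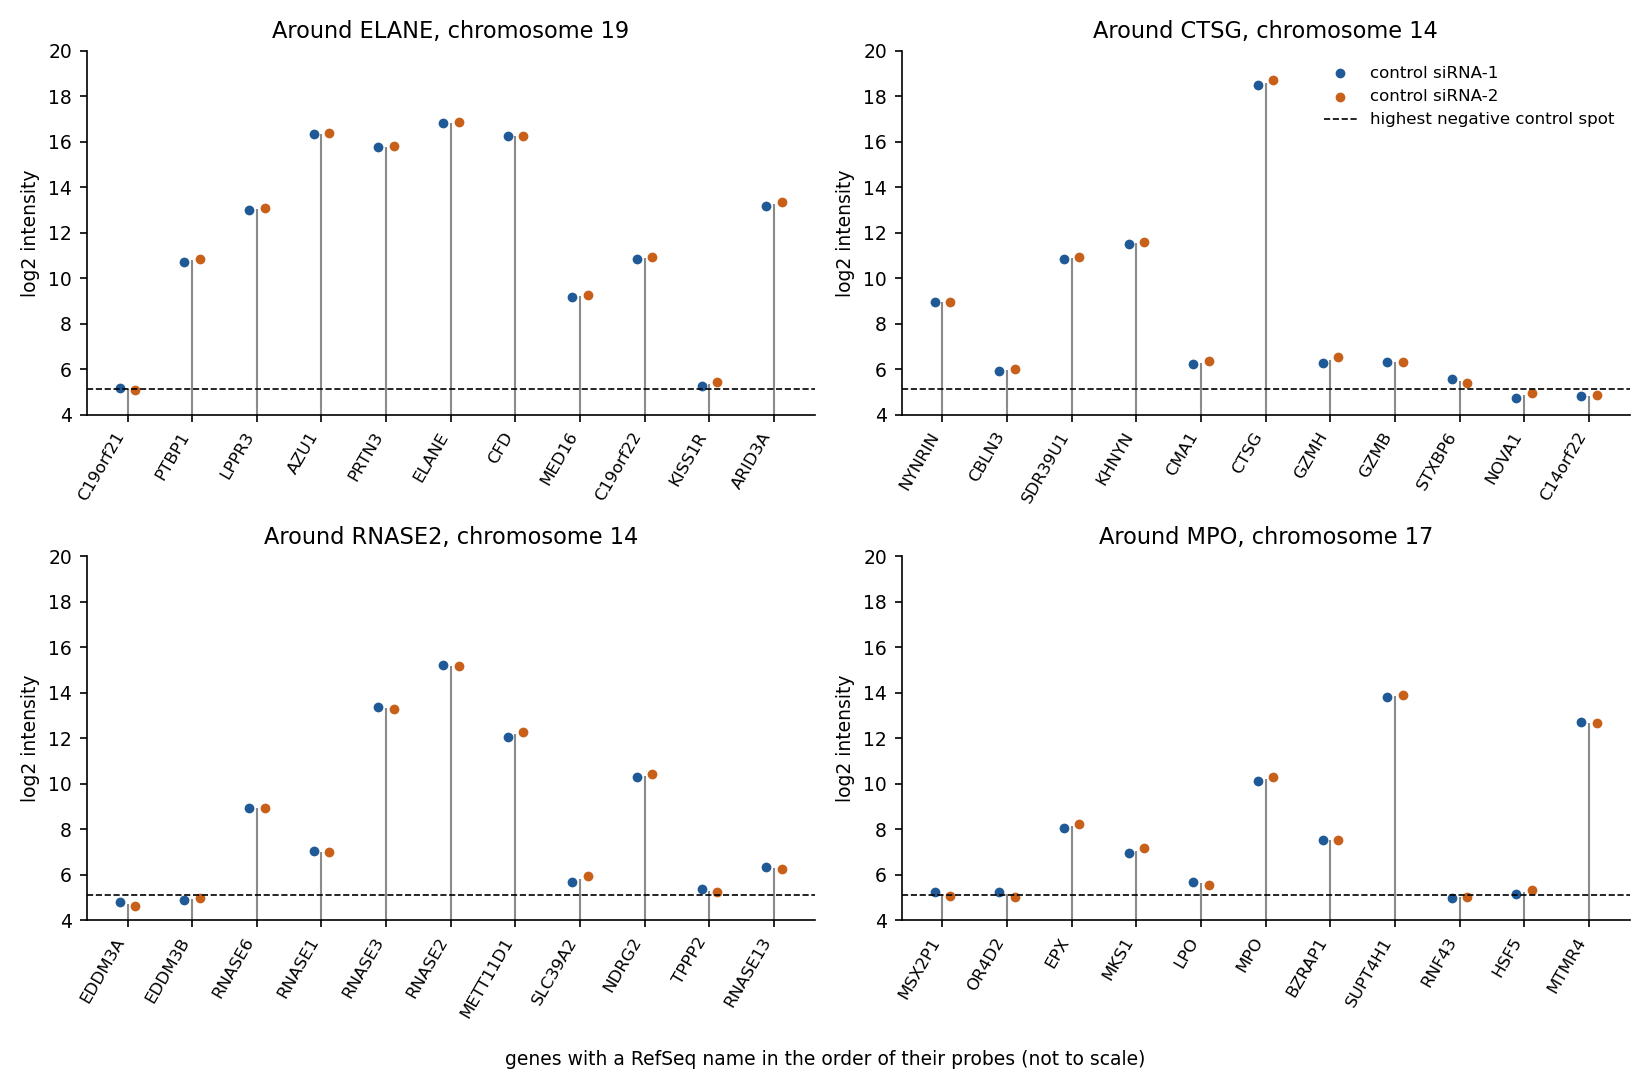
Log2 intensity (y axis) on both control arrays for genes around ELANE, CTSG, RNASE2 and MPO, in the order of their probes (x axis, not to scale), with the highest negative control spot as a dashed line. AZU1, PRTN3, ELANE and CFD have means between 15.78 and 16.84, whereas CMA1, GZMH and GZMB beside CTSG have means of 6.28, 6.42 and 6.32.

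The promoters of the granule genes are shown because they differed in base composition from those of the bright housekeeping genes. RefSeq promoters of GRCh38.p14 were matched for 7 of the granule genes. The 150 bases before the transcription start are given 5′ to 3′ on the strand of the gene, with CG dinucleotides in capitals. The windows lie at chr14:24576251-24576400 on the minus strand for CTSG, at chr19:827687-827836 on the plus strand for AZU1, at chr19:840849-840998 on the plus strand for PRTN3, and at chr14:20955337-20955486 on the plus strand for RNASE2.
CTSG: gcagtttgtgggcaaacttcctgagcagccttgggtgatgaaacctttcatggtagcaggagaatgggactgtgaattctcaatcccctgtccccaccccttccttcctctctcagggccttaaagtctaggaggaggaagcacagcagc
AZU1: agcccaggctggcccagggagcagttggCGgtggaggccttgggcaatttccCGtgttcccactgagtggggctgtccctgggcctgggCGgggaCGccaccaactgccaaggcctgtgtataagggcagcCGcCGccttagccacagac
PRTN3: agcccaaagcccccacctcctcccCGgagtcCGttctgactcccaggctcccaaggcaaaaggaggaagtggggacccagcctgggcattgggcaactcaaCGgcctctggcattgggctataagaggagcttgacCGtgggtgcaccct
RNASE2: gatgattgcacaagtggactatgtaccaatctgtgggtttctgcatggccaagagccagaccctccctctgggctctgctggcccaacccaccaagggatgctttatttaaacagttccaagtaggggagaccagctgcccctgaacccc
CTSG and RNASE2 held no CG in these bases, PRTN3 4 and AZU1 6. In the whole window of 300 bases, from 250 before to 50 after the start, the ratio of observed to expected CG was 0.143 for CTSG, 0.150 for RNASE2, 0.273 for PRTN3 and 0.276 for AZU1. SERPINB1, which is also expressed outside the myeloid lineage, had 0.839. The letters GAGGAAG, a core bound by the myeloid factor PU.1 and searched on both strands, occurred 2 times in the CTSG window and 1 time in that of PRTN3. They were held by 2 of the 7 granule gene promoters (28.6%), by 7 of 21 monocyte and macrophage gene promoters (33.3%), by 17 of 62 cytoplasmic ribosomal protein gene promoters (27.4%) and by 14.3% of all 14777 promoters.

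Reference genes of many tissues were all detected, and all 20 passed the median of detected genes. GAPDH read 16.34 and 16.37, PPIA 17.86 and 17.84, RPLP0 17.85 and 17.81, and B2M, the light chain of MHC class I, 17.62 and 17.57. The dimmest was the TATA-binding protein gene TBP with 10.43 and 10.67, and the list median was 15.27. The promoters of 3 bright reference genes are set beside those of the granule genes, at chr6:73521033-73521182 on the minus strand for EEF1A1, at chr7:44796531-44796680 on the plus strand for PPIA, and at chr12:120201112-120201261 on the minus strand for RPLP0, with CG in capitals as before.
EEF1A1: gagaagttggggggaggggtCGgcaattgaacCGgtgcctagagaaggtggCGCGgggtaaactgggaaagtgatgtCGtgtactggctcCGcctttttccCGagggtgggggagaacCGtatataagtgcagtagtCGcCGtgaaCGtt
PPIA: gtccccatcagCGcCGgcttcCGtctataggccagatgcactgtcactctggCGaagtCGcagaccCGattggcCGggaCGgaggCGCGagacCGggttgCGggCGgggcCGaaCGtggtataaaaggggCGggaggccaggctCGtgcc
RPLP0: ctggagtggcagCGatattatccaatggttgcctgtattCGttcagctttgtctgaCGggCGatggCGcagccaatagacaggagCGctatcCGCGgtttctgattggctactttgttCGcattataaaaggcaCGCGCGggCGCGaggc
These 150 bases held 11, 17 and 14 CG, and the ratios over the whole window were 0.891, 1.13 and 0.980.

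Over all protein-coding genes with a promoter, the CG ratio was higher in brighter genes. The median was 0.394 in 3124 genes that were not detected, 0.630 in the dimmest quartile of detected genes and 0.866 in the brightest, and the share of promoters with a ratio above 0.6 was 37.5%, 52.3% and 87.3%. Monocyte and macrophage genes had a median ratio of 0.255 (21 promoters) and granule genes of 0.273 (7 promoters), although most of them were bright. Cytoplasmic ribosomal protein genes had 0.911 and the proliferation genes 0.941. The GC box GGGCGG was held on either strand by 38.1% of promoters of undetected genes and by 70.5% in the brightest quartile, and the ETS site CCGGAAG by 3.59% and 22.7%. The TATA box core TATAAA went the other way with 17.6% and 6.73%, and GAGGAAG was held by 13.9% and 14.6%. CCGGAAG and GAGGAAG share the letters GGAAG, but neither contains the other. Over all promoters the shares were 60.1%, 14.7%, 9.31% and 14.3% in the same order. These shares describe letters in a window and not binding.

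**Figure D2:**
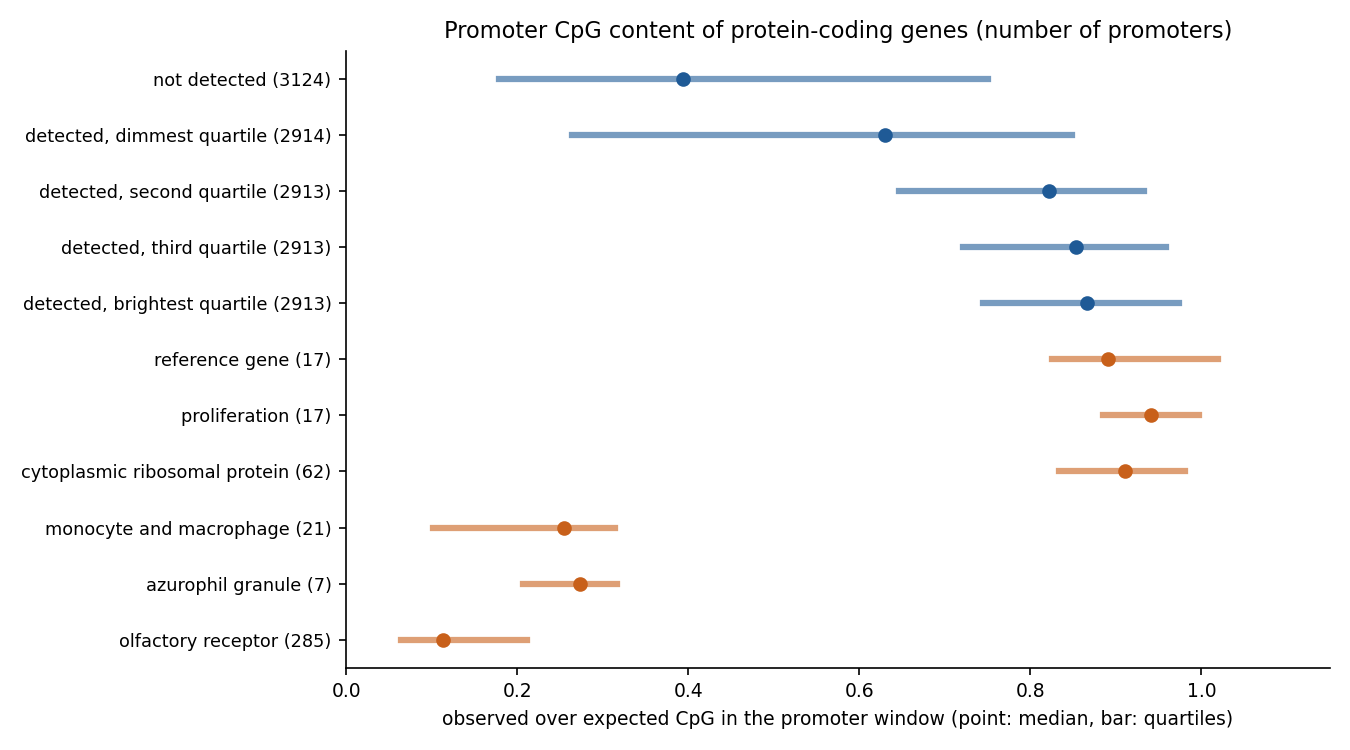
Observed over expected CG ratio (x axis) in promoter windows of 300 bases for protein-coding genes by detection and brightness and for selected groups (y axis, number of promoters in parentheses), with points for medians and bars for quartiles. The medians rise from 0.394 in undetected genes to 0.866 in the brightest quartile, and the monocyte and granule genes stand at 0.255 and 0.273.

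Monocyte and macrophage genes were detected in 23 of 25 cases (92.0%), and 17 passed the median of detected genes (68.0%). CCR2, the receptor for the monocyte chemoattractant CCL2, read 13.96 and 13.95. MNDA, a nuclear antigen of myeloid cells, read 13.28 and 13.16, and the alarmin gene S100A8 13.33 and 13.16. All 3 differed by less than 0.2 between the arrays. The pattern receptor TLR2 read 12.82 and 12.72, the phagocytosis checkpoint gene SIRPA 12.50 and 12.54, and the galectin gene LGALS3 12.44 and 12.51. CSF1R, the receptor for the macrophage growth factor, had a mean of 11.48, S100A9, the partner of S100A8, 11.12 and 11.08, the Fc receptor gene FCGR2A 10.88 and 11.01, and CYBB, the catalytic subunit of the phagocyte oxidase, 11.09 and 10.79. CD14, the lipopolysaccharide coreceptor that defines mature monocytes, read only 7.52 and 7.47, and the integrin gene ITGAM 8.16 and 7.98. The haemoglobin scavenger receptor gene CD163, with 5.21 and 5.25, and the glucan receptor gene CLEC7A, with 5.13 and 4.81, were not detected. The range of the list thus reached from the floor to 13.95. LYZ, FCGR1A and MRC1 were not analysed here.

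Myeloid transcription factor genes were detected in 12 of 12 cases, and 9 passed the median of detected genes. MYB, a factor of immature cells, read 16.58 and 16.65. CEBPA, which commits progenitors to the myeloid lineage, read 15.43 and 15.51, and IRF8, which favours monocytes over granulocytes, 14.53 and 14.58. RUNX1 read 13.21 and 13.17 and SPI1, the gene of PU.1, 13.09 and 13.10. The factors for granulocytes GFI1 and CEBPE read 12.90 and 12.95, and 12.30 and 12.51, and CEBPB 12.29 and 12.35. EGR1, an early response gene linked to macrophage maturation, read 11.47 and 11.93, and EGR2 7.77 and 8.32. MEIS1 was the dimmest of the list with 5.59 and 5.66.

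Of 15 surface markers used in the diagnosis of monocytic leukemia 12 were detected (80.0%), and 8 of these passed the median of detected genes. CD33 read 13.29 and 13.32, the CD15 synthase gene FUT4 13.63 and 13.58, CD4 12.98 and 12.95, HLA-DRA of MHC class II 11.39 and 11.02, and the aminopeptidase gene ANPEP, known as CD13, 10.65 and 10.64. The progenitor markers CD34, with 5.39 and 5.13, and KIT, with 4.95 and 5.01, and the adhesion molecule gene NCAM1, with 4.86 and 5.09, were not detected. Detected below the median were the tetraspanin gene CD9 with 8.53 and 8.91, CD38 with 8.02 and 7.79, and ITGAM and CD14 with the values given above. Of 14 inflammasome and interleukin 1 genes all were detected and 7 passed the median. The adaptor gene PYCARD read 15.25 and 15.28 on a probe that also holds the Alu stretch, CASP4 13.92 and 13.98, and CASP1 12.15 and 12.22. The sensor gene NLRP3 had a mean of 13.03, and the cytokine gene IL1B itself read 8.80 and 8.33.

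Stem and progenitor genes were mostly not detected. Of 12 genes 4 were detected (33.3%), below the background share of 71.8%. LMO2, a bridging factor of haematopoietic stem cells, read 14.39 and 14.30, the receptor tyrosine kinase gene FLT3 10.27 and 10.25, GATA2 8.10 and 8.04, and AVP 6.68 and 6.67. PROM1, known as CD133, with 4.52 and 5.29, ERG with 4.86 and 4.81, and MECOM with 4.88 and 5.07 were not detected. Mature neutrophil genes were detected in 5 of 13 cases (38.5%), led by the granulocyte growth factor receptor gene CSF3R with 12.77 and 12.75 and the chemokine receptor gene CXCR2 with 9.34 and 9.44. CAMP read 7.66 and 7.96, MMP9 6.98 and 7.25, and ALPL 5.92 and 5.95. The genes of the later, specific granules LTF and LCN2 were not detected. Of 12 dendritic cell genes 5 were detected, among them CD83 with 11.42 and 11.43, BATF3 with 9.75 and 9.61, and LILRA4 with 8.37 and 8.57.

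Lymphoid genes were detected in 25 of 39 cases, but 3 passed the median of detected genes. No T cell gene did so. CD8A led them with 6.81 and 6.92, the receptor subunit gene CD3E read 5.75 and 5.70, and 12 of 15 were called detected at such levels. In the B cell list 6 of 12 were detected, and the receptor subunit gene CD79A read 10.75 and 10.81, and the surrogate light chain gene IGLL1 9.51 and 9.55, whereas MS4A1, known as CD20, was not detected with 5.17 and 5.54. In the NK cell list NKG7, a granule membrane gene of cytotoxic cells, read 12.05 and 12.18, and the other 6 detected genes had means below 7.5. Perforin, PRF1, with 5.13 and 5.21, and granulysin, GNLY, with 5.21 and 5.21, were not detected. Lymphoid transcription factor genes were detected in 5 of 10 cases, with TCF7 as the brightest at 6.81 and 6.92, and GATA3, LEF1 and EBF1 were not detected. Erythroid genes were detected in 8 of 13 cases, with EPOR, the erythropoietin receptor gene, at 8.70 and 9.13, but HBB, the adult beta globin gene, and GATA1 were not detected, with means of 5.15 and 5.03. Megakaryocyte genes were detected in 6 of 10 cases and GP9 was the only bright one with 10.32 and 10.67. Mast cell, basophil and eosinophil genes were detected in 6 of 9 cases, led by PRG2, the eosinophil major basic protein gene, with a mean of 12.02.

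Genes of other tissues were mostly dim. Of 52 epithelial, fibroblast, endothelial, liver, neural and muscle genes 24 were detected but 6 passed the median of detected genes, and the list median was 5.43. Those 6 were MBP with 12.97 and 13.06, CKM with 11.36 and 11.37, HP with 10.65 and 10.63, KRT8 with 9.56 and 9.57, KRT18 with 9.45 and 9.54, and DES with 9.36 and 9.33. MBP encodes myelin basic protein, and its other probes had means of 7.56 and 5.85. The lists differed, since all 8 muscle genes were detected, but from 2 to 5 genes in each of the other 5 lists. The muscle regulator genes MYOG and MYOD1 read 6.19 and 6.17, and 5.78 and 5.70, and the muscle genes other than CKM and DES had means from 5.61 to 6.49. The liver gene ALB, the epithelial EPCAM, the fibroblast COL3A1, the endothelial KDR and the neural GFAP stood at or below 5.25 on both arrays and were not detected. Olfactory receptor genes were detected in 109 of 382 cases (28.5%), and 2 of these passed the median, OR2H1 with 10.84 and 10.93 and OR10H2 with 9.74 and 10.06. Keratin genes were detected in 28 of 55 cases, led by KRT10 with 14.60 and 14.62, and bitter taste receptor genes in 15 of 25, led by TAS2R30 with 8.97 and 8.93.

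**Figure D3:**
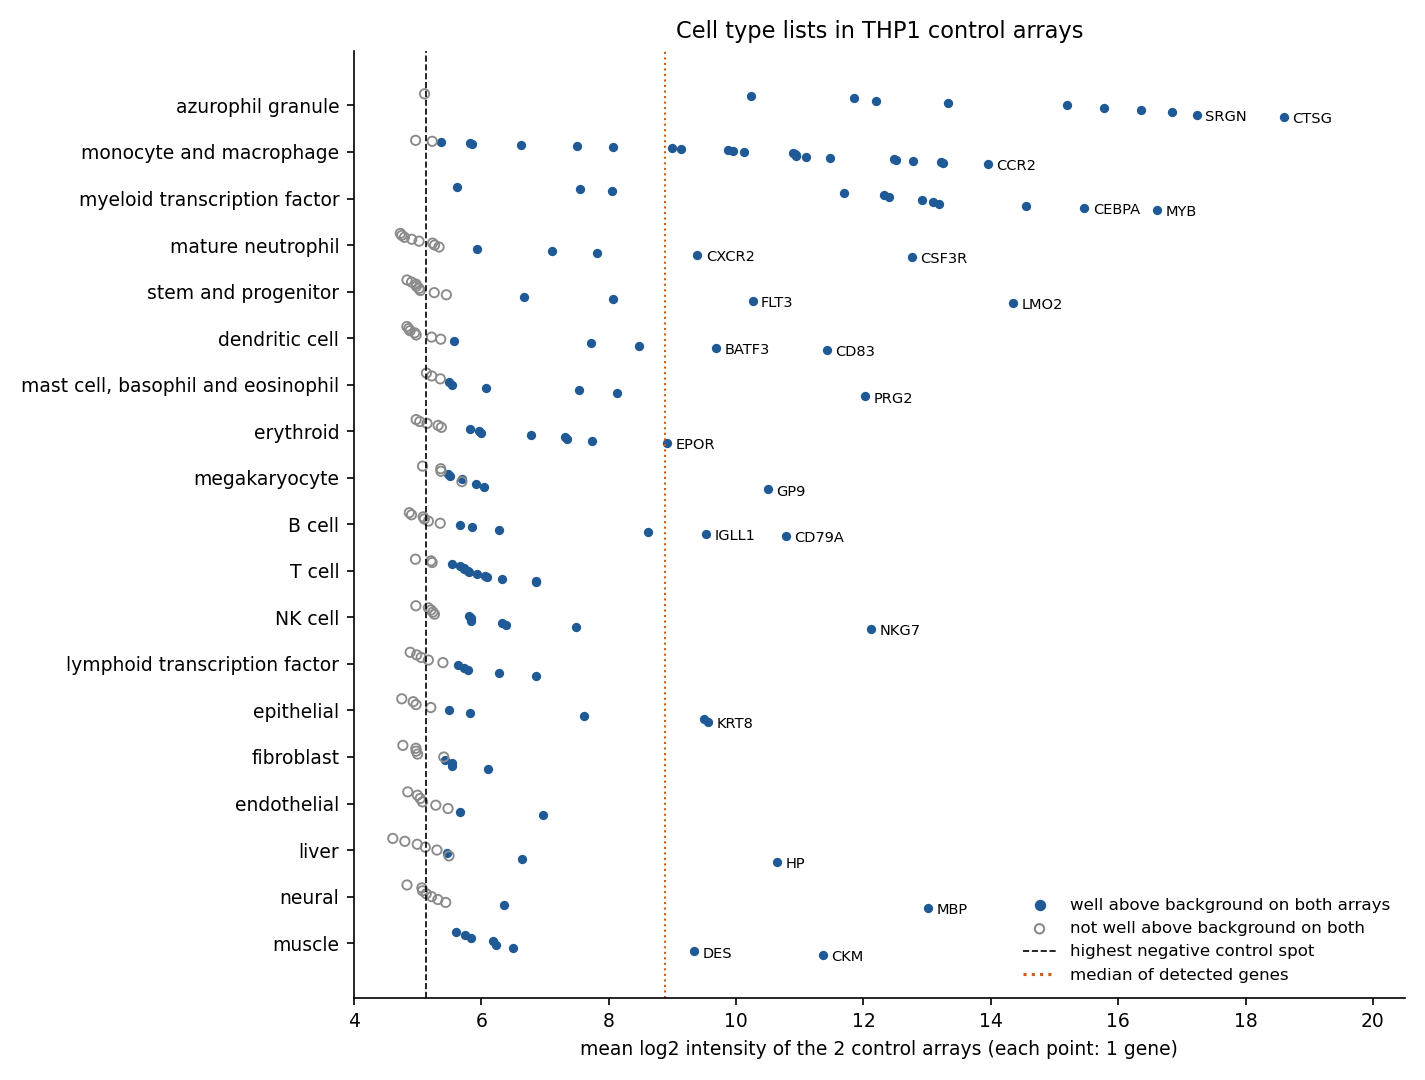
Mean log2 intensity of the 2 control arrays (x axis) for every gene of 19 cell type lists (y axis), with filled points for genes well above background on both arrays and open points for the others. The granule list reaches up to 18.60, the myeloid factor list to 16.61 and the monocyte list to 13.95, whereas the T cell list ends at 6.87.

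HOX genes differed by cluster. In the HOXA cluster 9 of 11 genes were detected, in HOXB 6 of 10, in HOXC 5 of 9 and in HOXD 1 of 9. HOXA9, the gene most closely tied to MLL fusions, read 11.86 and 11.89 (chr7:27202588-27202647, hg19), and HOXA10 read 11.84 on both arrays. HOXA13 had a mean of 10.91, and HOXA11 10.03 and 10.02. These 4 genes of the far end of the cluster passed the median of detected genes. HOXA7 read 6.89 and 6.90, HOXA5 6.48 and 6.43, HOXA4 6.51 and 6.55, HOXA6 5.70 on both arrays and HOXA3 5.77 and 5.63. These 5 genes were dimmer than HOXA9 and its neighbours HOXA10, HOXA11 and HOXA13. The antisense transcript HOXA11AS read 11.70 and 11.64 and the nearby EVX1 had a mean of 10.46, both chosen after their values were seen. In the other clusters HOXC6 reached 8.81 and 9.46, HOXB4 8.53 and 8.73 and HOXB6 8.53 and 8.36, and HOXD9, the only detected gene of its cluster, read 5.67 and 5.70.

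**Figure D4:**
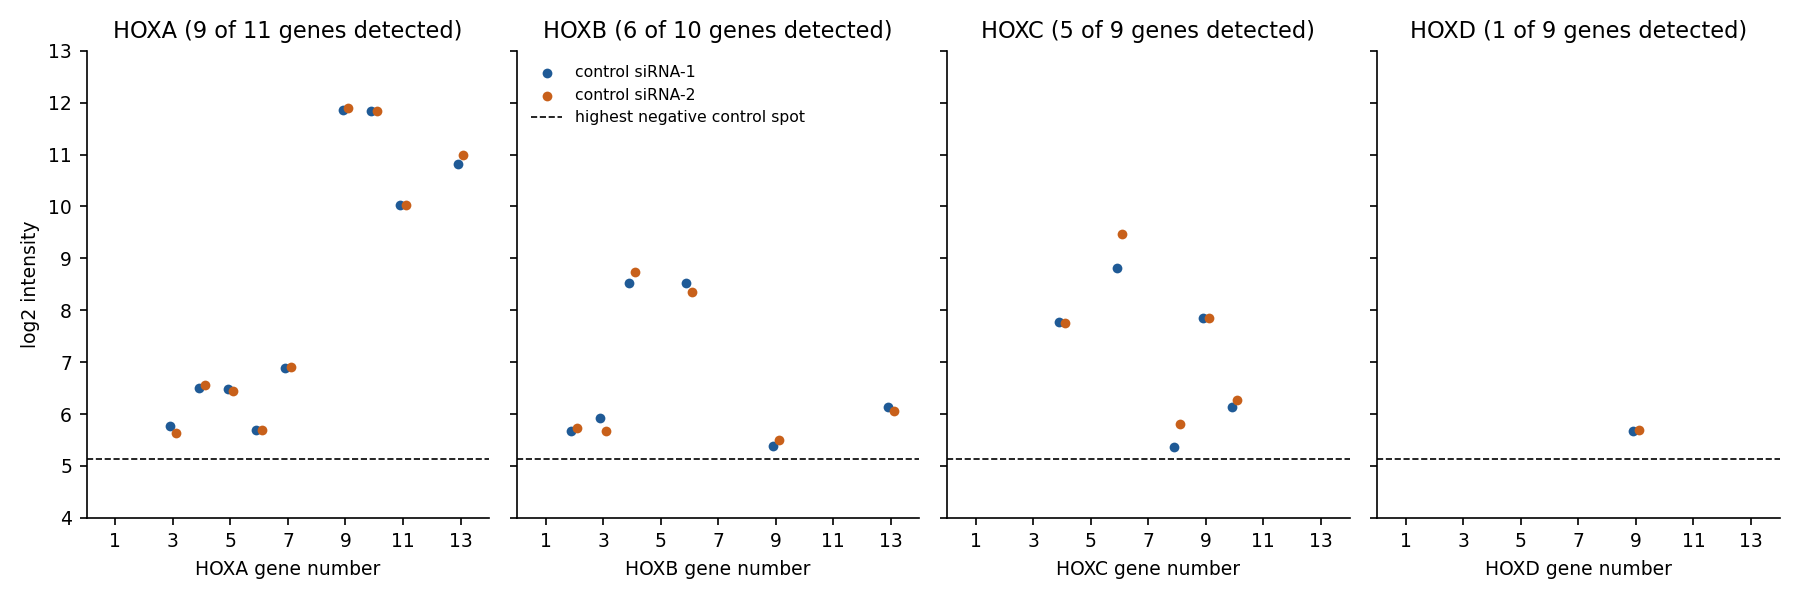
Log2 intensity (y axis) of the detected HOX genes by their number in the cluster (x axis) on both control arrays, with a dashed line for the highest negative control spot. HOXA9, HOXA10, HOXA11 and HOXA13 lie between 10.02 and 11.89, and HOXD9 lies at 5.67 and 5.70.

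Genes known as targets of MLL fusions were detected in 16 of 17 cases and 11 passed the median of detected genes, with PROM1 as the exception. The list holds MYB and 4 HOXA genes, of which HOXA9 and HOXA10 passed the median and HOXA7 and HOXA5 did not. Of the others, the splicing regulator gene MBNL1 read 14.92 and 14.91, the cell cycle kinase gene CDK6 13.93 and 13.96, the HOX cofactor gene PBX3 11.71 and 11.82, the survival gene BCL2 11.39 and 11.45, and MEF2C 10.73 and 10.88. The dimmest detected ones were EYA1 with 6.15 and 6.32, RUNX2 with 6.13 and 5.95, and MEIS1. The probes of the fusion partners differed along the genes. Of the 4 MLL probes the first along the gene (chr11:118348856-118348915, hg19) read 10.95 and 11.08, and those that followed, at 118361998, 118362577 and 118395871, read 5.49 and 5.59, 6.75 and 6.85, and 7.26 and 7.24. The fusion transcript keeps the 5′ part of MLL and the 3′ part of AF9, whose gene is named MLLT3 on the array. Its probes at chr9:20345191-20345250 and chr9:20346480-20346539 read 7.02 and 7.24, and 7.59 and 7.61. Since probes hybridise differently, the brightness along MLL is given as a description.

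Genes mutated in AML were detected in 24 of 25 cases and 22 passed the median, KIT being the one not detected. NPM1, a nucleolar chaperone, read 17.37 and 17.42, the splicing factor genes SFRS2 and U2AF1 15.47 and 15.62, and 15.44 and 15.52, and the metabolic enzyme gene IDH2 13.52 and 13.77. NRAS, mutated in many leukemias, read 10.30 and 10.52. Of 16 fusion partner genes all were detected, from MLLT1 with 13.62 and 13.63 to MYH11 with 5.49 and 5.39. Among cell cycle inhibitor and tumor suppressor genes 10 of 11 were detected, RB1 with 13.43 and 13.53 and CDKN2C with 13.07 and 13.23 being the brightest. CDKN2A, the gene of p16 on chromosome 9, read 8.51 and 8.56 on one probe (chr9:21968039-21968098, hg19) and 6.21 and 5.46 on the other. CDKN2B beside it read 6.23 and 5.98, and MTAP, the methylthioadenosine phosphorylase gene on the other side, was not detected on any of its 3 probes, the brightest reading 5.36 and 5.29.

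All 20 proliferation genes were detected and passed the median, led by the replication helicase genes MCM7 with 15.85 and 16.19 and MCM3 with 14.94 and 15.12, the thymidylate synthase gene TYMS with 14.69 and 14.96, and BIRC5 with 14.40 and 14.65. MKI67 read 11.13 and 11.41 and the mitotic kinase gene AURKB, the dimmest, 8.77 and 9.10. Of 26 glycolysis genes 23 were detected and 16 passed the median, and isoforms of 1 step differed. LDHB read 17.17 and 17.22 and LDHA 15.06 and 15.08, but the testis form LDHC 6.38 on both arrays. ALDOA read 16.17 and 16.27, whereas the testis forms PGK2, with 5.07 and 5.04, and GAPDHS, with 4.91 and 5.09, were not detected. The proteasome family showed the same split, with 37 of 39 subunit genes detected and the exceptions PSMB11 of the thymus, at 5.29 and 5.32, and PSMA8 of the testis, at 4.75 and 4.81. All 76 mitochondrial ribosomal protein genes, all 12 RNA polymerase II subunit genes and all 35 tRNA synthetase genes were detected, with medians of 12.54, 12.76 and 11.48.

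Both control arrays gave nearly the same picture. Over the 20654 genes Pearson's r was 0.998 and Spearman's rho 0.994, which are across genes of 2 libraries that share cell line, slide and probes and get no test. Of the 100 brightest genes of one array 95 were among the 100 brightest of the other, and of the 1000 brightest 971. The median difference, control siRNA-2 minus control siRNA-1, was 0.06 on the log2 scale and its SD was 0.19, falling from 0.24 in genes up to 6 to 0.14 in genes between 12 and 14, and 0.16 in the 1094 genes above 14. More than 2-fold apart were 47 genes (0.228%), 15 higher and 32 lower on control siRNA-2. From the scanner software's background-subtracted signal scaled to its 75th percentile the split was 294 higher and 426 lower, unscaled 329 and 365, and after normexp and quantile normalization 8 and 30. Each control siRNA had 1 array, so no difference between them could be tested.

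The largest differences are given for detected genes with a RefSeq symbol. UNCX, a homeobox gene, read 14.89 on control siRNA-1 and 12.72 on control siRNA-2. KLF17 read 14.15 and 12.97, the channel genes KCNH3 and HCN2 11.61 and 10.41, and 13.80 and 12.66, and the interferon-induced gene IFI27 14.63 and 13.53. JUN, an early response transcription factor gene, read 9.64 on control siRNA-1 and differed by -1.14, and PTPRCAP, which binds the phosphatase CD45, 6.95 and 5.75. C21orf136, LOC100127955 and C22orf41 complete the 10 genes lower on control siRNA-2, with differences from -2.17 to -1.08. In the other direction FCRL6 read 5.39 and 6.88, LYNX1 11.77 and 12.98 and DBX1 5.67 and 6.88. TKTL1 read 15.66 and 16.55, GNB2L1 15.76 and 16.57, EIF3H 15.69 and 16.44, HIST1H4C 16.80 and 17.54, CHCHD2 13.43 and 14.30, ACTA2 6.21 and 7.01, and SC4MOL 8.43 and 9.17. The CHCHD2 probe lay on chromosome 1 by its coordinates. TKTL1, GNB2L1 and EIF3H were below 16 on one array and above 16 on the other, and no spot of control siRNA-2 had a log2 intensity between 15.92 and 16.07, nor of control siRNA-1 between 15.99 and 16.08. HIST1H4C crossed a like gap near 17. In all 26 genes lay on different sides of 16 on the 2 arrays. The part of these gaps in the differences was not tested, and they were looked for after the values were seen.

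Some gene groups differed in 1 direction by small amounts between both control siRNAs. All 20 proliferation genes were higher on control siRNA-2, by 0.13 to 0.35 and a median of 0.26, whereas over all detected genes the median was 0.07 and 68.7% were higher. The 12 RNA polymerase II subunit genes were all higher too, by a median of 0.12. Of 23 monocyte and macrophage genes 5 were higher on control siRNA-2, with a median of -0.08, and S100A12 differed most with 7.11 and 6.15. Under all 5 scalings tried, the 20 proliferation genes were higher on control siRNA-2, and 20 or 21 of the 23 monocyte and macrophage genes lay below the median difference of all detected genes. Of the RNA polymerase II subunit genes 9 to 12 were higher. Of the 77 cytoplasmic ribosomal protein genes between 6 and 52 were higher, with a median difference of 0.01 on the deposited intensity. Below the median difference of all detected genes lay 65 of them on the deposited intensity. On the scanner software's background-subtracted signal, scaled or unscaled, 69 did. After quantile normalization 39 did, and after normexp and quantile normalization 41. With 1 pool per siRNA, the siRNA and the pool cannot be told apart.

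**Figure D5:**
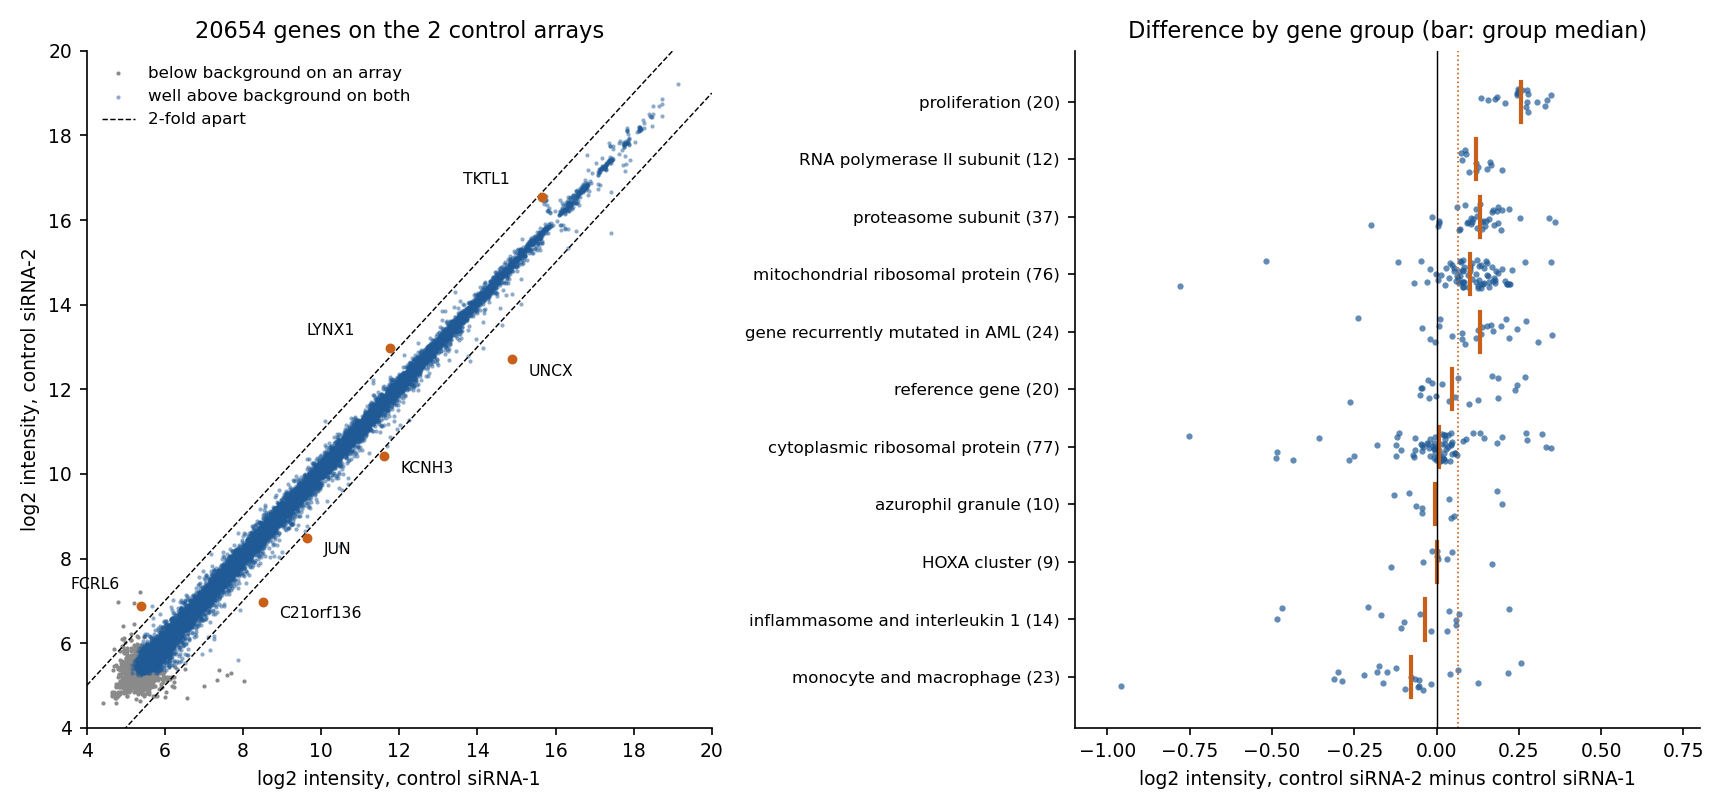
Left, log2 intensity of 20654 genes on control siRNA-1 (x axis) and control siRNA-2 (y axis), with dashed lines for 2-fold differences and named examples. Right, the difference of both arrays on the log2 scale (x axis) for detected genes of 11 groups (y axis), with bars for group medians, a solid line at 0 and a dotted line for the median of all detected genes at 0.07. All 20 proliferation genes lie to the right of 0.

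Identical spots gave the error within an array. On 734 probes printed on 10 spots each, with every spot above background, the median SD between spots was 0.20 on control siRNA-1 and 0.19 on control siRNA-2. The means of 10 spots differed between the arrays with an SD of 0.13. The first 2 values are for single spots, so the SD of 0.13 cannot be compared with them directly. For 3 probes (0.409%) the spots of both arrays did not overlap. CCND1, the cyclin D1 gene, had a mean of 6.77 and 6.21, with spots from 6.55 to 6.92 and from 6.06 to 6.42. SC4MOL, a gene of sterol synthesis, had 8.43 and 9.17, and THAP10 8.16 and 8.54. KIRREL3 and ZNF571 also were among the 5 largest differences relative to the spot SD, with 6.01 and 6.25, and 6.45 and 6.81, and their spots overlapped or touched. At the other end PPARG, the nuclear receptor of lipid storage, had 10.22 on both arrays, and the integrin gene ITGB1 10.07 and 10.08. ZMAT3 had 6.03 on both arrays, ACOX2 6.59 on both and P4HTM 8.51 on both. These spots describe the 2 hybridisations and not the variation between cultures.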

How the data were processed

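RNA of THP1 cells given either control siRNA was hybridised to single-colour (Cy3) arrays of 1 slide, each a pool of 5 experiments. According to the paper, IMGM Laboratories carried out the array work on behalf of the authors. Per the submitters' processing notes, spots were read with Agilent Feature Extraction 10.5.1.1. The intensity that the authors deposited was the median pixel signal (identical in 100% of spots), neither background corrected nor normalized. The authors also deposited a quality weight for each spot, a score whose rule is not given in the sources used here. The 2 knockdown arrays entered through their weights, and their 2 intensity columns were not used.

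Control spots (1377 of 44495) were dropped, and the weight filter left 33323 spots on 26219 probes. The log2 of the deposited intensity was averaged per probe without normalization. No spot was saturated. Tables were made with Python 3.11.15 and pandas 2.3.3, and quantile normalization and normexp (offset 50) with limma 3.58.1 in R 4.3.3. Probe positions are those of the scanner files (hg19). Of 26608 gene names 20220 matched RefSeq, and array names were kept. Promoters use the first listed start per gene in GRCh38.p14. The agreement measures were tested on simulated data with 200 genes shifted far beyond the 2-fold limit. This checked the calculation only and not how reliable the counts near that limit are. The number of arrays limits the precision.

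Members and gene lists were chosen with earlier results of these data known. The genes named are the 30 brightest with a symbol, members of each list by brightness and detection, the 10 largest differences between the arrays in each direction (here those with a RefSeq symbol), the 5 largest and 5 smallest differences on identical spots relative to their spread, and family members that go against their family. Alternatives were other detection calls, probe choices, spot filters, signals and normalizations, each array alone for detection, and leaving out probes with the Alu stretch, which was chosen after seeing the data. LYZ, FCGR1A, MRC1, FCGR3B and KIR2DL1 were not analysed here, and some other genes and probe sequences are not reported here.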

Additional observations from a re-analysis of the deposited data

Results flagged for a closer look

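Control spots, which entered no gene count, carried signal above the negative control spots. All 10 spike-in sequences, with 32 spots each, had means above every negative control spot on both control arrays, from 5.17 to 17.71 on the log2 scale. They differed between the arrays by -0.03 to 0.10, and 8 of the 10 were well above background in most spots on both. Of 12 control probes named ERCC, with 10 spots each, 5 had means above every negative control spot on both arrays, up to 5.75, and 2 were well above background in most spots. Of 13 control probes named ETG 2 had means above every negative control spot, up to 5.50. Of 18 control names that start with DCP, with 2 spots each, 17 had means above every negative control spot on both arrays, up to 17.84, and differed between the arrays by -0.47 to 0.31 over all 18. The bright corner spots, 14 on each array, differed by 0.19.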

How the results depend on the processing

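Of 66 alternative values 6 moved away from the reported one, all of them in the agreement of both arrays. Genes detected ranged from 19095 to 20451 against 19113, and were 19728 and 19736 on a single array. The counts of monocyte and macrophage (23), HOXA (9) and reference genes (20) did not move under any alternative, and lymphoid genes ranged from 25 to 30. From the scanner software's processed signal r was 0.9917, scaled or unscaled, and 720 and 694 genes were more than 2-fold apart, against 47 from the deposited intensity. That count was 21 among the 19113 genes well above background on both arrays, 0.110% against 0.228% of all 20654 kept genes. Without spots marked as outliers it was 30. The cause of these changes was not tested. No paired analysis was possible because the control arrays form 1 group. Signal near background limits the detection of dim genes.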
